A study of Mus musculus with 27 samples.

Results

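Expression of 10 surface and secreted markers of stromal progenitor cells was followed through osteoblast differentiation, namely Lepr, Ly6a (the antigen Sca-1), Thy1 (CD90), Eng (CD105), Nt5e (CD73), Vcam1 (CD106), Kitl, Pdgfra, Pdgfrb and Cd200. They were chosen by name, through their Ensembl gene identifiers, and are 10 of the 37991 genes quantified. The cells came from neonatal calvariae, the bones that roof the skull, of C57BL/6J-Col3.6 CFP mice aged 5 to 9 days, and are labelled osteoblast. In this strain a fragment of the collagen type I promoter drives a cyan fluorescent protein, so the sort on that protein, made after a first period in culture, selected cells in which the promoter fragment was active. The sorted cells were grown with ascorbic acid and β-glycerol phosphate, and RNA was sequenced on days 2, 4, 6, 8, 10, 12, 14, 16 and 18. All groups share the strain, the sort and the medium, so day is the only difference that the labels give, and no untreated control was analysed here.

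Each day has 3 files that carry 1 barcode and differ in the sequencing lane. The paper calls them triplicate samples. Over genes with whole-number counts the lane files differed by about as much as sampling noise (chi-square per degree of freedom 0.999 to 1.02, chi-square p from 0.0513 to 0.537), and over the 10 markers the same statistic lay between 0.624 and 1.38 (p from 0.121 to 0.898). The lane files were therefore summed and counted as 1 library per day, which gives 9 libraries of 22470146 (day 10) to 62009116 (day 12) counts. On this reading there is no replicate culture at any day, and if the files were separate cultures the p-values below would rest on fewer samples than were measured. A difference between neighbouring days consequently has no replicate check, and the tests below ask whether a gene followed day across the 9 libraries. Levels are given in TPM, which divide reads by transcript length and scale a file to a fixed sum, after a further scaling of each file to its upper quartile. Where 9 values follow each other, they are those of days 2, 4, 6, 8, 10, 12, 14, 16 and 18 in that order. Among the genes of osteoblast maturation, Col1a1, which encodes the main collagen of bone, rose from 1526 to 4263 TPM between days 2 and 18, and Bglap, which encodes osteocalcin, was at 1.24 and 208 TPM on the same days. Sost and Mepe, which mark osteocytes, were at or near 0 on every day, with at most 0.113 and 0.081 TPM. Dmp1 and Phex, also expressed by osteocytes, went the other way. Between days 2 and 18 Dmp1 rose from 0.051 to 6.54 TPM and Phex from 0.338 to 37.2 TPM.

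Surface antigens of this kind are used to isolate skeletal stem and progenitor cells, which lie upstream of osteoblasts and marrow adipocytes. Leptin receptor and stem cell factor (Kitl) mark the perivascular stroma of adult marrow, where the second supports haematopoietic stem cells, while PDGF receptors receive growth signals in mesenchymal cells. CD73, CD90 and CD105 are the antigens by which cultured human mesenchymal stromal cells are usually defined, and Sca-1 and CD200 have been used to sort mouse progenitors.

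The 10 markers did not move together. Cd200 and Pdgfra rose from day 2 to day 18, Lepr, Kitl and Eng fell, and the remaining 5 had no straight-line trend past the threshold. In edgeR's quasi-likelihood test of a straight line in day, with Benjamini-Hochberg adjustment over all 15659 genes tested, 5 of the 10 markers had an adjusted p under 0.05, against 54.3% of all genes. Rises made up 2 of the 10, against 28.3% of all genes, and falls 3 of the 10, against 26.1%. With a natural spline in day, which also finds levels that go up and down again, 7 of the 10 passed, against 59.1% of all genes. These shares lie near those of all genes, so the counts show nothing particular to the markers. The median fitted change from day 2 to day 18 was -0.08 on the log2 scale over the 10 markers and 0.05 over all genes tested.

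**Figure D1:**
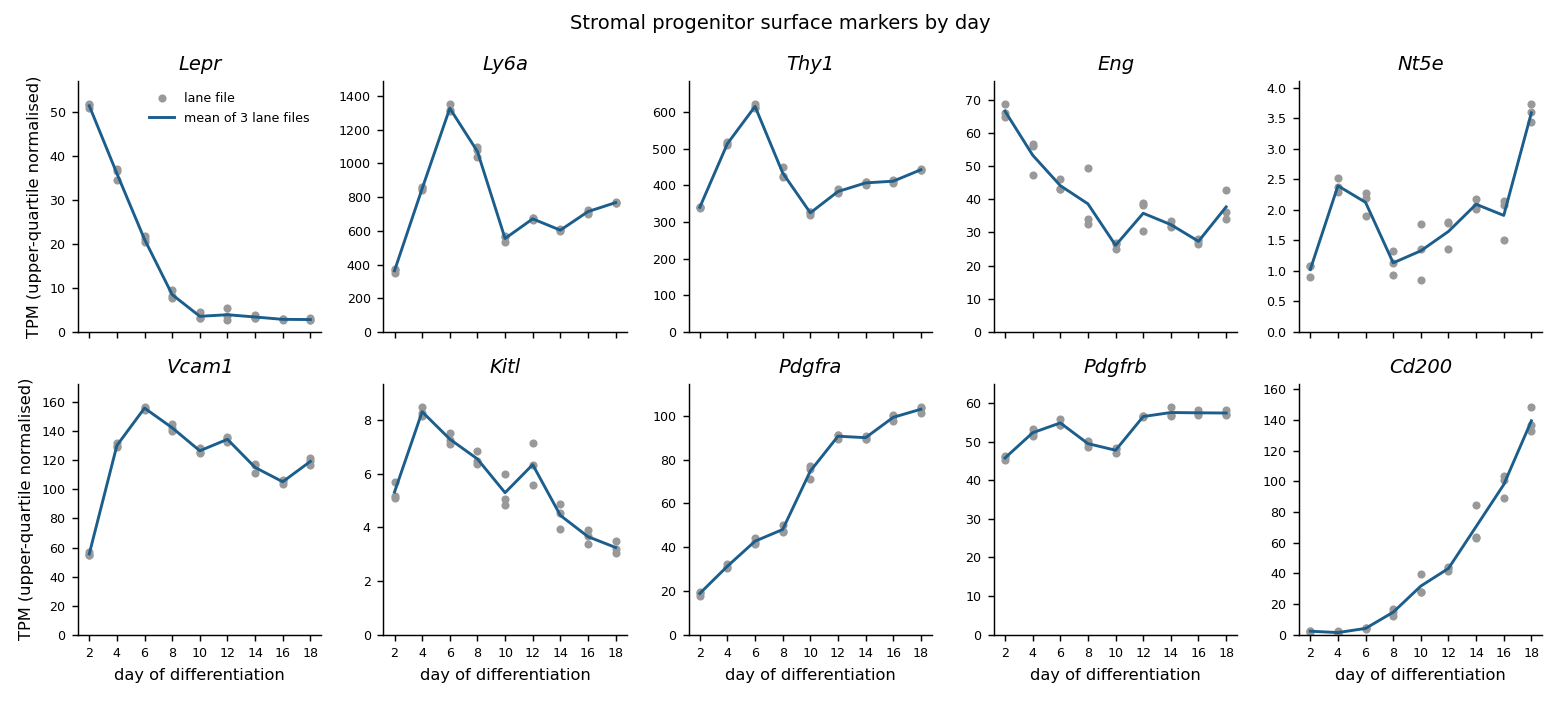
Level of each of the 10 markers (upper-quartile normalised TPM, linear axis from 0) against day of differentiation, where grey points are the 3 lane files of a day and the line joins their mean. Lepr goes from 51.4 to 2.82 TPM and Cd200 from 2.27 to 139 TPM, while Ly6a and Thy1 are highest on day 6.

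The markers with the largest changes are introduced here with the sequence around their transcription start, since Cd200 and Pdgfra rose while Lepr and Kitl fell. The windows are those of RefSeq on GRCm38.p6, from 250 bases before to 50 bases after the start, written 5′ to 3′ on the strand of the gene, with capitals for the GC box (letters GGGCGG), the TATA box (letters TATAAA), the CAAT box (letters CCAAT), the core bound by RUNX factors (letters TGTGGT) and the AP-1 element (letters TGANTCA), each searched on both strands. Lepr has 2 windows, and windows were matched for 6 of the 10 markers (Lepr, Eng, Nt5e, Kitl, Pdgfra and Cd200). None was found for Ly6a, Thy1 and Vcam1, and Pdgfrb was left out of the search.
Cd200, chr16:45409004-45409303, minus strand: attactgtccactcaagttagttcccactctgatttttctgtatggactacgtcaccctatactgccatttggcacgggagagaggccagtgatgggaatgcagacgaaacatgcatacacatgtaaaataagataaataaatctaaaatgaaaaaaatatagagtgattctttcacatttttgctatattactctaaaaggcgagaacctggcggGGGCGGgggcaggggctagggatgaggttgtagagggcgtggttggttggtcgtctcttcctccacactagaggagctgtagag
Pdgfra, chr5:75152001-75152300, plus strand: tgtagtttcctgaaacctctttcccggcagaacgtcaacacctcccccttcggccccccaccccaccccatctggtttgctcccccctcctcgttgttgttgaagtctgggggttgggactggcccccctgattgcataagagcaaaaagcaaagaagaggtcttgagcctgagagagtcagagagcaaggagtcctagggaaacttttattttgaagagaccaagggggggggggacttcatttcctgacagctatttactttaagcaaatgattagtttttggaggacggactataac
Lepr first window, chr4:101717157-101717456, plus strand: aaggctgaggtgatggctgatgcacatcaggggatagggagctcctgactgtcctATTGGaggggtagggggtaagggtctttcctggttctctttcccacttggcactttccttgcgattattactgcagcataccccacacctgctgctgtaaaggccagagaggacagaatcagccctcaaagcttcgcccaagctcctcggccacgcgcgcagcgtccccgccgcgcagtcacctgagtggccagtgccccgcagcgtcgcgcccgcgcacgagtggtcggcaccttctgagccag
Lepr second window, chr4:101717656-101717955, plus strand: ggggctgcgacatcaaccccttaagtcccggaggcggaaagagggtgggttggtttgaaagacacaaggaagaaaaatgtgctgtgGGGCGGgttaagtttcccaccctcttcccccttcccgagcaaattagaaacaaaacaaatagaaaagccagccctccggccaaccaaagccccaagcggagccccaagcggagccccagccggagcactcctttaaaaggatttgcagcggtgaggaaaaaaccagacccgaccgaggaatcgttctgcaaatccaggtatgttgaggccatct
Kitl, chr10:100015571-100015870, plus strand: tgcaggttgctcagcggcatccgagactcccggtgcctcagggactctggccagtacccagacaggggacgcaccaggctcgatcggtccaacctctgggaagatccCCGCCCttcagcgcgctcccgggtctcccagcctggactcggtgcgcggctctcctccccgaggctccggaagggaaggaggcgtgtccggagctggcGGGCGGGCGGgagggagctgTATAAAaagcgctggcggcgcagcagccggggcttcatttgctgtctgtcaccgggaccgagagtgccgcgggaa

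The Cd200 window held 1 GC box and 45.0% G and C, below the median of 52.7% over all 32851 windows. None of the 5 sets of letters occurred in the Pdgfra window, whose G and C made up 51.0%. The first Lepr window held 1 CAAT box and the second 1 GC box, at 61.3% and 54.3% G and C. In the Kitl window there were 3 GC boxes, 2 of them overlapping, and 1 TATA box, at 68.7% G and C. Of all windows, 35.7% hold the GC box letters, 13.6% the TATA letters, 37.4% the CAAT letters, 16.8% the RUNX letters and 7.81% the AP-1 letters. The RUNX and AP-1 letters were in none of these windows, nor in those of Eng, which held none of the 5, and Nt5e, which held 4 GC boxes at 71.0% G and C. A match of this kind is a description of letters and not of binding.

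Lepr, the receptor for the adipocyte hormone leptin, had the largest fall of the 10. Its level was 51.4, 36.0, 21.0, 8.48, 3.56, 3.91, 3.40, 2.86 and 2.82 TPM on the 9 days in turn. It dropped at every step from day 2 to day 10 and lay between 2.82 and 3.91 TPM from then on. The day with the highest level was 18.2 times the lowest. In CPM, the counts scaled to the library total without regard to transcript length, Lepr was at 160 on day 2, with an exact Poisson 95% interval of 157 to 164, and at 8.30 on day 18, with an interval of 7.47 to 9.19. The order of the late days differed between the scales, since in CPM day 12 was the lowest, at 7.69, against 10.2 on day 10. On day 12 the lane files were at 2.76, 5.39 and 3.60 TPM, with mean transcript lengths in RSEM of 4562, 2774 and 4289 bases. The straight line fell by 4.59 on the log2 scale over the 16 days (SE 0.58, adjusted p = 0.000152 by edgeR), and the curve had an adjusted p of 4.79e-08 by edgeR. Without day 18 the fitted fall was steeper, with a log2 change of -5.31. Neighbours in the order of levels that differed by more than the scatter around the fitted curve (SD 0.32 on the log2 scale) were those among days 2, 4, 6 and 8 and the step from day 8 to day 12, and no neighbouring pair among the 5 lowest days did. The gene lies on chromosome 4 at 101390009 to 101487957 of NCBIM37, plus strand, with 8 annotated transcripts of 208 to 5542 bases. In 18 of the 27 lane files its count was not a whole number, that is, RSEM divided reads between Lepr and another gene, and its level is uncertain where reads were divided.

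Of 4 other genes of leptin signalling, 3 fell along the line, against 26.1% of all genes, and 1, the ligand, was not tested. Whether the 3 exceed that share was not tested. Lep was at 0 TPM from day 2 to day 10, lay between 0.067 and 0.725 TPM from day 12 to day 18 and did not pass the filter on low counts. Jak2, the kinase bound to the receptor, fell by 0.41 on the log2 scale (SE 0.10, adjusted p = 0.00546 by edgeR), from 17.2 TPM (day 2) to 13.3 TPM (day 18). Stat3, the transcription factor that this kinase activates, fell by 0.47 along the line (SE 0.12, adjusted p = 0.00931 by edgeR). Its level first rose, from 75.5 TPM (day 2) to 92.2 TPM (day 6), and was 67.1 TPM on day 18. Socs3, a feedback inhibitor of the pathway, was at 5.54 TPM on day 2, reached 18.1 TPM on day 4 and was at 7.85 TPM on day 18. Its line fell by 1.69 on the log2 scale (SE 0.38, adjusted p = 0.00357 by edgeR), although the level on day 18 was above that on day 2.

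Kitl, stem cell factor, ranked 8th or 9th of the 10 markers on every day, with 430 to 1220 counts per library. Among all genes with a level above 0 it lay between percentiles 42.3 and 58.0. Kitl was at 5.31, 8.30, 7.28, 6.54, 5.29, 6.33, 4.44, 3.65 and 3.25 TPM on the 9 days in turn. The level was highest on day 4, and days 14, 16 and 18 lay below every earlier day. The line fell by 1.21 on the log2 scale (SE 0.24, adjusted p = 0.00195 by edgeR), and the curve gave 0.000163. Kit, its receptor, was at 0 to 0.071 TPM before day 12 and at 0.133, 0.476, 1.62 and 1.22 TPM on days 12, 14, 16 and 18. Kit rose by 7.69 on the log2 scale (SE 0.94, adjusted p = 0.000123 by edgeR), a fitted value that rests on near-zero early counts. Kit is also a mast cell receptor. Of the 4 mast cell markers, Mcpt4 and Tpsb2 were at 0 in every library and Ms4a2 was at most 0.071 TPM. Cpa3, the only one tested, was at 0 TPM on days 2, 4 and 6 and between 0.141 and 0.910 TPM afterwards. Its line rose by 5.37 on the log2 scale (SE 1.84, adjusted p = 0.0298 by edgeR), likewise from near-zero early counts. The part of such cells in the level of Kit was not tested.

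The ratio of Lepr to Kitl, the pair that marks perivascular marrow stroma, was compared within each library, where depth cancels. It was 9.67, 4.34, 2.89 and 1.30 on days 2, 4, 6 and 8, and lay between 0.618 and 0.868 from day 10 to day 18. Lepr thus exceeded Kitl on the 4 earliest days and was below it on the 5 later ones. The log2 ratio fell by 3.49 over the 16 days (two-sided exact permutation test over all 362880 orders of the 9 days, p = 0.00277, 0.00415 after adjustment over 3 pairs). This test, here and for the other pairs, takes the 9 values as exchangeable. Likeness between neighbouring days, which it does not allow for, can make its p too small. The log2 change was -2.67 without day 2 (adjusted exact permutation p = 0.0320) and -4.33 without day 18.

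Eng, the accessory receptor for TGF-β and BMP ligands known as endoglin, was at 66.6, 53.3, 44.1, 38.6, 26.1, 35.8, 32.4, 27.3 and 37.7 TPM on the 9 days in turn. It fell through day 10 and had no further order in the later days, all of which were below day 8. The highest level was 2.55 times the lowest. The line fell by 0.86 on the log2 scale (SE 0.21, adjusted p = 0.00594 by edgeR), and by 0.63 without day 2 (adjusted p = 0.0455 by edgeR). RSEM divided reads of Eng with another gene in 21 of the 27 lane files. The 3 lane files of a day differed in TPM by a coefficient of variation of up to 24.2%, reached on day 8. There the counts were 554, 578 and 589, while the mean transcript lengths in RSEM were 2819, 1970 and 2764 bases. Endoglin is also an endothelial antigen. Of the 8 endothelial markers, Tie1 and Cldn5 were at 0 in all 9 libraries, a count that allows up to 0.0484 to 0.134 CPM depending on the library, and Pecam1 was at most 0.339 TPM. The summed level of the 8 went from 3.95 TPM (day 2) to 16.6 TPM (day 18). Of the 4 tested, 3 rose (Erg, Tek and Cdh5) and 1 fell (Kdr), against 28.3% and 26.1% of all genes. The part of endothelial cells in the level of Eng was not tested.

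Among the partners of Eng, Tgfbr2, the type II receptor for TGF-β, rose by 1.48 on the log2 scale (SE 0.30, adjusted p = 0.00219 by edgeR), from 18.2 TPM (day 2) to 75.1 TPM (day 18). Tgfb1 and Tgfb3, 2 of the ligands, had log2 changes of 0.50 and -0.55 (adjusted p = 0.188 and 0.160 by edgeR). Acvrl1, the type I receptor that endoglin assists in endothelium, had a log2 change of 0.29 (adjusted p = 0.259 by edgeR) at 9.93 to 18.0 TPM.

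Cd200, an immunoglobulin-family surface protein that restrains myeloid cells through its receptor, had the largest change of the 10. It was at 2.27, 1.38, 4.09, 14.7, 31.7, 43.2, 70.5, 97.8 and 139 TPM on the 9 days in turn. From day 4 each day was above the one before, and by level among the 10 markers Cd200 went from 10th on day 4 to 3rd on day 18. The counts behind the lowest days were small, 77 on day 2 and 40 on day 4, against 4965 on day 18. In CPM this was 0.946 on day 4 (exact Poisson 95% interval 0.676 to 1.29) and 112 on day 18 (109 to 115), and the highest TPM was 101 times the lowest. The line rose by 6.61 on the log2 scale (SE 0.63, adjusted p = 4.09e-05 by edgeR), and leaving out 1 day at a time moved it between 6.03 and 7.08. Its 11 annotated transcripts, of 235 to 2347 bases, are shared out differently between lane files at low counts, where the coefficient of variation of TPM reached 67.1%. The gene lies on chromosome 16 at 45382248 to 45409166 of NCBIM37, minus strand.

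Cd200r1, the receptor for Cd200 on myeloid cells, was lowest on day 8, at 0.307 TPM, and highest on day 18, at 2.51 TPM, with a log2 change of 1.33 (adjusted p = 0.143 by edgeR). Markers of macrophages rose over the same days as Cd200. Of the 7 macrophage markers 6 rose and none fell, against rises in 28.3% and falls in 26.1% of all genes. Their median log2 change was 5.98. Their summed level went from 24.1 TPM (day 2) to 2014 TPM (day 18), of which Lyz2 made up 1855 TPM and Cd68 114 TPM. Csf1r and Adgre1, which define the lineage, reached 14.9 and 17.2 TPM. Adipocyte markers rose too, in 5 of 5, with a sum that went from 3.21 TPM (day 6) to 407 TPM (day 18), when Fabp4 was at 198, Adipoq at 92.0 and Cfd at 35.1 TPM. The part of either cell type in the level of Cd200, or of any other marker that changed with day, was not tested. In bulk libraries such as these, fewer cells that carry a transcript and less transcript per cell cannot be told apart.

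The alpha and beta receptors for platelet-derived growth factor differed from each other. Pdgfra was at 18.8, 31.3, 42.7, 48.1, 74.8, 90.7, 90.1, 99.4 and 103 TPM on the 9 days in turn. Apart from day 14, which lay just under day 12, every day was above the one before. Its line rose by 2.28 on the log2 scale (SE 0.28, adjusted p = 0.000131 by edgeR), and the day with the highest level was 5.47 times the lowest. Pdgfrb was at 45.8, 52.3, 54.8, 49.5, 47.8, 56.5, 57.5, 57.4 and 57.4 TPM on the same days, with a mean of 53.2 ± 4.58 TPM (SD over 9 days). Its log2 change was 0.17 (SE 0.09, adjusted p = 0.139 by edgeR), and the curve gave an adjusted p of 0.377, the highest of the 10. No other marker varied as little, with a ratio of 1.26 between its highest and its lowest day.

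Within a library, the ratio of Pdgfra to Pdgfrb was 0.412, 0.599, 0.779 and 0.972 on days 2, 4, 6 and 8, and 1.57, 1.61, 1.57, 1.73 and 1.80 on days 10, 12, 14, 16 and 18. The beta receptor was therefore the more abundant per length through day 8 and the alpha receptor from day 10. The log2 ratio rose by 2.11 over the 16 days (two-sided exact permutation test, p = 2.21e-05, 6.61e-05 after adjustment over 3 pairs).

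**Figure D2:**
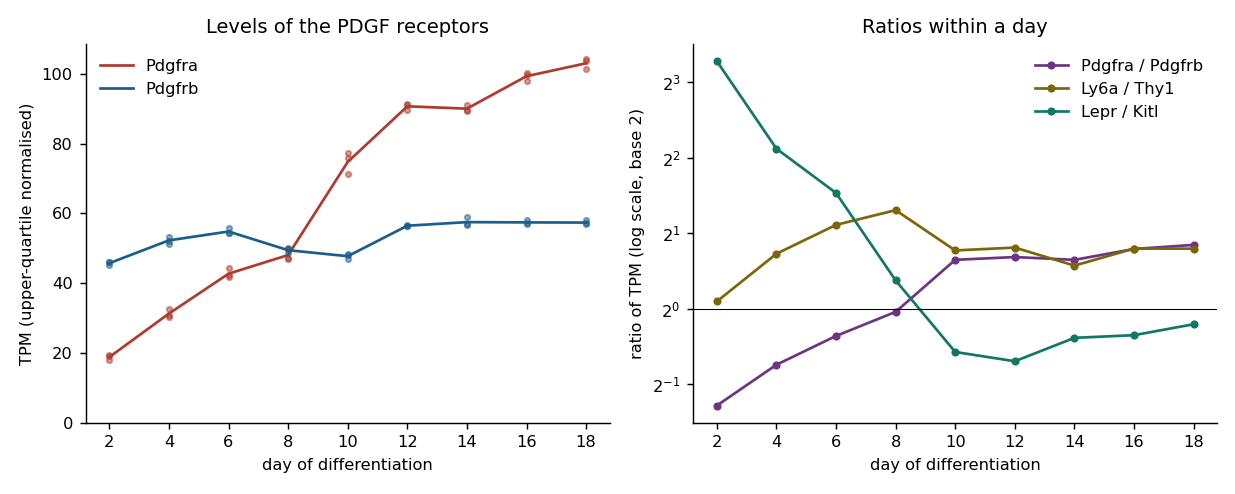
Left, levels of Pdgfra and Pdgfrb (upper-quartile normalised TPM) by day, with points for lane files and lines through their means. Right, ratios of 3 pairs of markers within a day on a log axis of base 2, where the line of equal levels is crossed by Pdgfra / Pdgfrb and by Lepr / Kitl between days 8 and 10, and Ly6a / Thy1 stays above it from 1.07 on day 2 to its highest value of 2.47 on day 8.

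The ligands of these receptors did not share a direction. Pdgfa, which binds the alpha receptor, fell by 1.27 on the log2 scale (SE 0.18, adjusted p = 0.000259 by edgeR), from 60.0 to 28.9 TPM between days 2 and 18. Pdgfc, which binds mainly the alpha receptor, fell by 3.21 (SE 0.29, adjusted p = 3.21e-05 by edgeR), from 57.2 to 9.44 TPM. Pdgfd, which binds the beta receptor, rose by 1.96 (SE 0.18, adjusted p = 2.97e-05 by edgeR), from 10.5 to 34.5 TPM, and Pdgfb was at 0 on every day but day 18, when it was at 0.127 TPM.

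Ly6a and Thy1 were the most abundant of the 10 per length, first and second on all 9 days. Ly6a, a GPI-anchored surface protein, was at 363, 850, 1327, 1070, 554, 671, 604, 714 and 767 TPM on the 9 days in turn. It was highest on day 6, and days 4, 6 and 8 were above all others. The line did not describe this course, with a log2 change of -0.25 (SE 0.50, adjusted p = 0.695 by edgeR) whose sign turned without day 6 (0.10) and on the log2 TPM scale (0.08), while the curve gave an adjusted p of 0.00151 by edgeR. Ly6a belongs to a cluster of similar genes on chromosome 15, and RSEM divided its reads with another gene in 18 of the 27 lane files.

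Of 11 further Ly6-family genes, 3 passed the filter on low counts. All 3 passed the curve test, against 59.1% of all genes, but only Lynx1 rose along the line. Ly6e, which lies in the same cluster, was at 76.3 TPM on day 2, 350 TPM on day 8 and 224 TPM on day 18 (curve, adjusted p = 0.000125 by edgeR). Ly6c1 was at 13.1 TPM on day 2, 44.6 TPM on day 6 and 31.9 TPM on day 18 (curve, adjusted p = 0.00534 by edgeR). Both were lowest on day 2 and highest on day 6 or 8, as Ly6a was lowest on day 2 and highest on day 6.

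Thy1, another GPI-anchored protein, was at 340, 514, 615, 434, 325, 383, 406, 411 and 442 TPM on the 9 days in turn. It was also highest on day 6, but its range was narrower, with a ratio of 1.89 between the highest and lowest days. Neither its line (log2 change -0.25, SE 0.25, adjusted p = 0.430 by edgeR) nor its curve (adjusted p = 0.0540 by edgeR) passed. The curve lay at the threshold, with an adjusted p of 0.0461 under TMM factors, 0.00579 without day 14 and 0.439 without day 6. The ratio of Ly6a to Thy1 had no trend in day (log2 change 0.19, two-sided exact permutation p = 0.631, also 0.631 after adjustment), and its sign turned without day 2 (-0.31). Ly6a and Thy1 also mark lymphocytes, of whose markers Cd3e was at 0 in every library and the sum went from 0.013 TPM (day 2) to 8.06 TPM (day 18), when Cd4 was at 3.07 and Ighm at 4.54 TPM.

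Vcam1, the adhesion molecule bound by integrin α4β1, was at 55.6, 130, 156, 142, 127, 134, 115, 105 and 119 TPM on the 9 days in turn. Day 2 was below all other days, and the level declined after day 6 with small reversals. Its line had a log2 change of 0.08 (SE 0.38, adjusted p = 0.867 by edgeR), which became -0.50 without day 2 (adjusted p = 0.0291 by edgeR) and -0.06 when libraries were scaled to total counts only, and its curve gave an adjusted p of 0.00133 by edgeR. Itgb1, the beta subunit of its ligand, fell by 1.57 on the log2 scale (SE 0.20, adjusted p = 0.000151 by edgeR), from 805 to 278 TPM. Itga4, the alpha subunit, was at 0.485 TPM on day 2 and 1.49 TPM on day 18 and rose by 1.08 (SE 0.32, adjusted p = 0.0146 by edgeR).

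Nt5e, the enzyme that makes adenosine from AMP at the cell surface, was the lowest of the 10 on 7 of the 9 days. It was at 1.02, 2.40, 2.12, 1.13, 1.33, 1.65, 2.09, 1.91 and 3.59 TPM on the 9 days in turn, with 67 to 319 counts per library. Day 18 was the highest, and the remaining days had no steady order. The log2 change was 0.77 (SE 0.43, adjusted p = 0.160 by edgeR), and it depended on single libraries, at 0.18 without day 18 and 1.20 without day 4 (adjusted p = 0.777 and 0.0391 by edgeR). The curve, at an adjusted p of 0.0772 by edgeR, did not pass either.

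Of 5 other genes of the adenosine pathway, 1 rose, 1 fell, 2 did not pass and 1 was not tested. Over all genes tested, 28.3% rose and 26.1% fell. Entpd1, which makes the AMP that Nt5e uses, rose by 2.45 on the log2 scale (SE 0.55, adjusted p = 0.00361 by edgeR), from 4.45 TPM (day 2) to 20.2 TPM (day 18). Adora2b, an adenosine receptor, fell by 3.79 (SE 0.54, adjusted p = 0.000283 by edgeR), from 2.85 to 0.430 TPM. Ada, which removes adenosine, had a log2 change of -0.30 (adjusted p = 0.428 by edgeR). Adora1 stayed at or under 0.352 TPM, with an adjusted p of 0.0558 by edgeR, and Adora2a did not pass the filter on low counts.

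**Figure D3:**
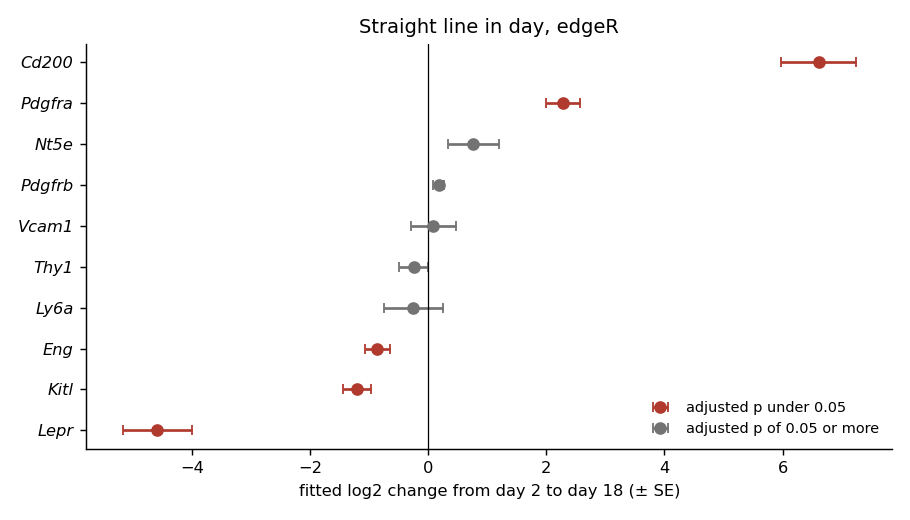
Fitted log2 change from day 2 to day 18 of each of the 10 markers by a straight line in day (edgeR), with bars of 1 SE and red for an adjusted p under 0.05. Cd200 and Pdgfra lie to the right of 0, Lepr, Kitl and Eng to the left, and the 5 grey genes have an adjusted p of 0.05 or more.

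Levels of the markers kept part of their order through the series. Vcam1 ranked 3 of 10 on 7 of the 9 days and 4 on days 2 and 18. Lepr went from 5th on day 2 to 10th on day 18, and Eng from 3rd to 7th, while Cd200 moved up from 9th to 3rd over the same span. Neighbouring days in a gene's own order of levels often lay within the scatter around its curve, in 7 of 8 steps for Thy1, Nt5e and Vcam1 and in 6 of 8 for Ly6a and Pdgfrb. For Pdgfra this was so in 2 of 8 steps and for Kitl and Eng in 3 of 8.

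As a description over the 9 days, with 1 library per point, Pearson's r was computed on log2 counts and not on TPM. The counts were scaled to the upper quartile of their library, with 0.5 added and no regard to transcript length. Pearson's r was -0.97 between Lepr and Pdgfra, -0.95 between Lepr and Cd200, 0.94 between Pdgfra and Cd200 and 0.93 between Lepr and Eng. Ly6a was nearer to Thy1 (r = 0.85) and Vcam1 (r = 0.83) than to Lepr (r = 0.03). Among 7594 genes with a mean of at least 10 TPM, the 2 most like each marker in course were found by the same measure. They were Farsb and Nars for Lepr (r = 0.999 and 0.996), Igf2r and Pcdh19 for Kitl (both 0.979), and Cnih4 and Ndufa10 for Eng (0.993 and 0.990). For the markers that rose they were Gnptg and Gdf10 for Cd200 (0.991 and 0.990) and Fam43a and Gxylt2 for Pdgfra (0.999 and 0.998). The nearest to Ly6a were Mnda and Etv5 (0.952 and 0.945), to Thy1 Rasa3 and Wisp2 (0.947 and 0.945), and to Vcam1 Asph and Synpo (0.987 and 0.976). The nearest to Pdgfrb were Fam54b and Cd81 (0.966 and 0.961), and to Nt5e Fyco1 and St3gal2 (0.932 and 0.921). A high r does not mean a like size of change, since Farsb went from 55.7 TPM (day 2) to 32.6 TPM (day 18) and Lepr from 51.4 to 2.82 TPM.

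Other genes of stromal and progenitor cells were likewise split. Of 20 listed, 19 were tested, 6 rose, 8 fell and 17 passed the curve test. Over all genes tested, 28.3% rose, 26.1% fell and 59.1% passed the curve test. The median log2 change was -0.54 for the list and 0.05 over all genes. Cxcl12, a chemokine of the perivascular stroma that is usually named beside Lepr and Kitl, rose by 4.66 on the log2 scale (SE 0.65, adjusted p = 0.000238 by edgeR), from 23.6 TPM (day 2) to 663 TPM (day 18), the reverse of both. Enpep, a surface aminopeptidase, rose by 5.61 (SE 1.02, adjusted p = 0.00109 by edgeR), from 0.680 to 20.4 TPM. Cd44, the hyaluronan receptor, fell by 4.20 (SE 0.41, adjusted p = 4.68e-05 by edgeR), from 807 to 73.2 TPM, and Mcam (CD146), a perivascular marker, fell by 3.20 (SE 0.55, adjusted p = 0.00081 by edgeR), from 7.61 to 1.37 TPM. Prrx1, a transcription factor of limb and craniofacial mesenchyme, had the highest mean of the list, at 641 to 926 TPM, although Cd44 was above it on days 2 and 4, with a log2 change of 0.26 (adjusted p = 0.136 by edgeR).

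**Figure D4:**
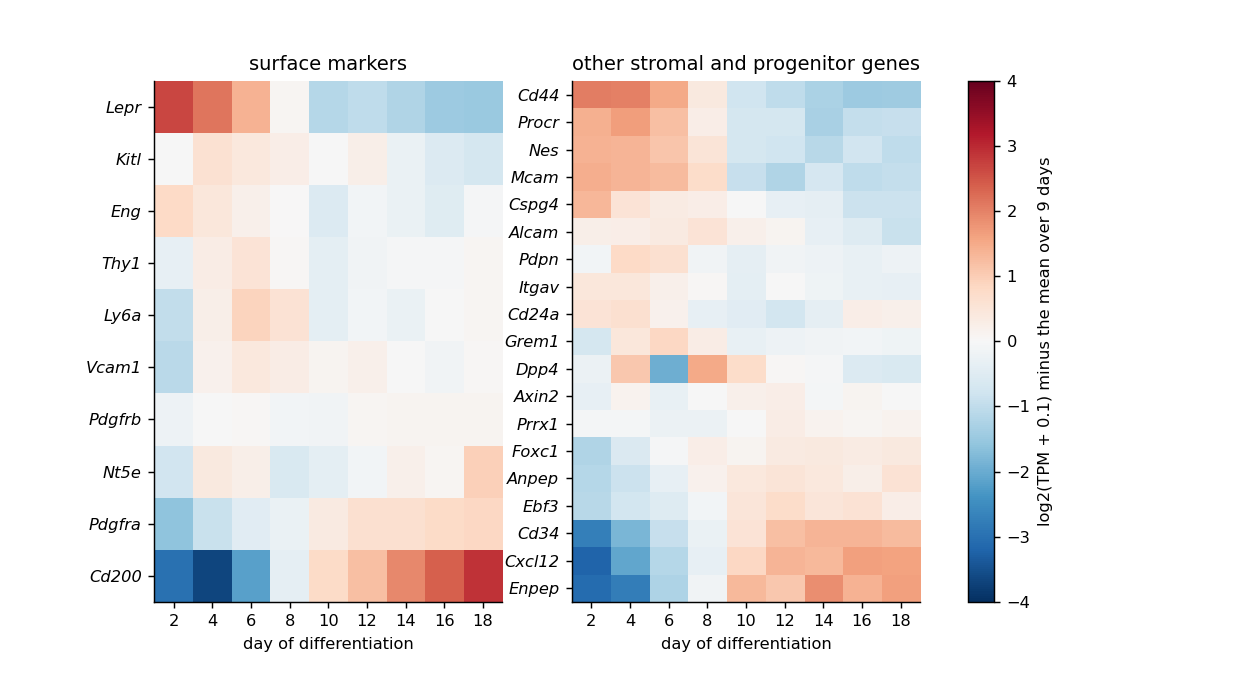
Level of each gene on each day as log2(TPM + 0.1) minus its mean over the 9 days (red higher, blue lower), for the 10 markers on the left and, on the right, 19 other stromal and progenitor genes with a mean of at least 1 TPM. Lepr, Cd44, Procr, Nes and Mcam are highest on days 2 to 6, and Cd200, Pdgfra, Cxcl12, Enpep and Cd34 on days 10 to 18.

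The markers of contractile mural cells fell over the same days as Lepr and Eng, in part. Of 7 tested, 4 fell (Acta2, Tagln, Myh11 and Rgs5) and 3 rose (Notch3, Abcc9 and Kcnj8), against 26.1% and 28.3% of all genes. The sum of the 7 went from 5947 TPM (day 2) to 979 TPM (day 18), of which Acta2 made up 5155 and 868 TPM. The part of mural cells in the falls of Lepr, Kitl and Eng was not tested. Of the 21 ligands, receptors and partners of the 10 markers, 18 were tested, 5 rose, 7 fell and 15 passed the curve test, with a median log2 change of -0.01. For this list and the next, the shares of all genes tested were 28.3% for rises, 26.1% for falls and 59.1% for the curve. Of the 12 genes of osteoblast maturation, 10 were tested, 7 rose, none fell and 10 passed the curve test, with a median log2 change of 4.51. Bglap and Ibsp, late genes of mineralising osteoblasts, rose by 11.27 and 9.55 on the log2 scale along the line. These fitted values rest on low early levels and exceed the changes along the curve, which were 7.63 and 7.44. Ibsp was at 0.581 TPM on day 2 and 78.4 TPM on day 18. Spp1, which encodes osteopontin and had the highest mean of the list after Col1a1, was at 402 TPM on day 2, 1012 TPM on day 6, 285 TPM on day 10 and 532 TPM on day 18, with a log2 change of -1.17 (adjusted p = 0.0932 by edgeR) and a curve that passed (adjusted p = 0.000365 by edgeR). Runx2 and Sp7, the lineage's transcription factors, had log2 changes of 0.49 and -1.23 (adjusted p = 0.0232 and 0.233 by edgeR). The line did not describe the course of Sp7, whose curve passed (adjusted p = 1.2e-05 by edgeR). Sp7 was at 32.3 TPM on day 2, 5.18 TPM on day 4, 2.77 TPM on day 8 and 10.6 TPM on day 18.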

How the data were processed

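RNA of sorted calvarial cells was measured at 9 time points. According to the labels and the methods, the authors aligned reads with Bowtie 0.12.9 to the transcriptome of NCBIM37 and quantified genes with RSEM (1.2.8 in the submitters' processing notes, while the methods name another release), after a NuGEN amplification of the cDNA. Per gene, the authors deposited an expected count, RSEM's estimate with shared reads divided, which is not normalised. TPM values were deposited by the authors as RSEM computes them, per length and to a fixed sum per file. FPKM values deposited by the authors are scaled to length and to aligned fragments, and served only as an alternative for ratios. The deposited gene and effective lengths are in bases, averaged over isoforms. Amplification and isoform division can move low values.

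Symbols and positions came from the GENCODE annotation of NCBIM37, which named 37205 of the 37991 identifiers. Groups are the days in the labels. TPM were put on 1 scale by dividing a file by its upper quartile (the 75th percentile of its non-zero values), times the average of that quartile in the 27 files. Counts of the 3 lane files of a day were summed, rounded and fitted with edgeR 4.0.16 in R 4.3.3 (filterByExpr at a minimum count of 10, upper-quartile factors, a quasi-likelihood test of a line in day and of a natural spline with 3 degrees of freedom, Benjamini-Hochberg adjustment, threshold 0.05). SE was derived from the test, as the size of the fitted change over 16 days divided by the square root of its quasi-likelihood F. Ratios of 3 pairs were tested by exact permutation in Python 3.11.15 with scipy 1.17.1. The common dispersion was 0.0581 around the line and 0.0191 around the spline. Poisson intervals (95%) and the 3-count floor describe counting error alone. The scripts were tested on simulated data. Same-numbered lane files of different days share only the lane and did not deviate together (mean r 0.00596, at most 0.0613).

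Named genes are the 10 markers, from each list those with the 2 largest rises, the 2 largest falls and the 2 highest mean TPM, and per marker the 2 genes of most alike course. The other ligands, receptors and partners, Ly6c1, Runx2, Sost, Mepe, Dmp1 and Phex were named outside that rule, after their values were seen. So were the genes in the caption of the heat map and further markers of other cell types. The markers and lists were chosen with earlier results of these data known. Alternatives were TMM factors, total counts, DESeq2 1.42.0, other filters, limma 3.58.1 on log2 TPM, the 27 lane files as samples, and each lane file and each day left out. Sequences are RefSeq promoter windows of GRCm38.p6, matched by symbol. No window was found for Ly6a, Thy1 and Vcam1, and Pdgfrb was not searched.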

Additional observations from a re-analysis of the deposited data

How the results depend on the processing

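With 1 library per day, p-values measure scatter around a line or curve, not between cultures, and low counts limit Nt5e, Kitl and the early days of Cd200. Of 338 alternative values, 326 were classed as unchanged. For a log2 change this means the same direction and the same side of the threshold. For a count of genes or markers it means only a value within a fixed ratio of the main count. Lepr, Eng, Kitl, Pdgfra and Cd200 kept their direction and their side of the threshold under every alternative run. Their log2 changes ran from -5.31 to -4.06, -1.20 to -0.63, -1.59 to -0.87, 1.94 to 2.58 and 6.03 to 7.08. Scaling to total counts moved the median change of all genes from 0.05 to -0.07, a shift of -0.12, and turned Vcam1 to -0.0615, which is 0.01 above that median. With limma on log2 TPM, Ly6a turned to 0.0814 for a pseudocount of 0.1, with or without a filter, and to 0.0809 for a pseudocount of 1. With the 27 lane files as samples, which counts each barcode more than once, Nt5e passed the threshold at 0.76 without and 0.75 with the replicate block (adjusted p = 0.0119 and 0.0156 by edgeR), and Pdgfrb at 0.17 in both (adjusted p = 0.000343 and 0.000604 by edgeR), so that 7 markers followed day. The replicate block changed no other call of a marker. Leaving out 1 lane file or 1 day moved Vcam1 between -0.50 and 0.25, Nt5e between 0.18 and 1.20, Ly6a between -0.84 and 0.10, and the log2 change of the Ly6a to Thy1 ratio between -0.31 and 0.31. Markers that followed day numbered 5 to 7, and markers that passed the curve test 7 to 9, where Thy1 and Nt5e joined or left. The number of genes that followed day lay between 6915 and 10881. The causes of these shifts were not tested.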
